A study of Solanum lycopersicum with 32 samples.

Results

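Trimethylation of lysine 4 of histone H3 (H3K4me3) was followed in heated tomato leaves (Solanum lycopersicum, wild type, cv. M82), by comparing the H3K4me3 peak lists of plants held at 45 °C for 6 h with those of plants held at 45 °C for 1 h. The members were the narrow-peak lists of this target at both times, that is 4 of the 32 samples, with 2 libraries at 6 h and 2 at 1 h. They were chosen by target and time and not by any measured value. All groups were leaf samples (the fourth leaf) from plants aged 4 weeks, raised at 24 °C in long days of 16 h light. The 2 lists at 0 h, from plants taken before heating, served to tell a mark that came back from one that appeared anew. No unheated plants at 6 h or at 1 h are among the samples, so duration of heat and time of day cannot be told apart. A single input library, labelled 0 h, is among the samples, so a change of background with heat was not tested. Whole leaves hold many cell types, and a change in the share of cells that carry the mark cannot be told apart from a change within each cell.

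H3K4me3 is deposited by methyltransferases of the SET domain family around the start of transcribed genes, and in plants as in other eukaryotes a strong narrow domain of the mark lies just downstream of the transcription start. It usually occurs together with acetylation of the same histone tail and with RNA polymerase II (RNAPII). It is removed by JmjC demethylases and is often more stable than the burst of transcription that precedes it. H3K9ac, H3K18ac and H3K27ac occur at active promoters and also at distal regulatory elements, and RNAPII marks the transcribing enzyme itself.

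Peaks with a q-value of at most 0.05 numbered 39050 and 43704 in the 6 h libraries (replicates 1 and 2), against 36418 and 37556 in the 1 h libraries. The depth, taken as fragments over a base in the background, was 3.71 and 6.31 for the 6 h libraries, against 4.67 and 6.32 for the 1 h libraries, so that the replicate 2 libraries of both times were nearly equal in this measure and replicate 1 of 6 h was the lowest. The median fold of the replicate 2 lists still differed, at 5.99 for 6 h against 8.06 for 1 h. The weakest summit called held 10 and 14 fragments at 6 h and 12 and 14 fragments at 1 h. The libraries are labelled as biological replicates. Their fragment counts at shared summits differed less within a time than between times. The mean chi-square per peak was 0.427 at 6 h and 0.295 at 1 h. It was 2.41 to 3.29 for the 4 pairs of a 6 h with a 1 h library, and 1.04 to 1.20 for the 4 pairs of a 1 h with a 0 h library. Only summits called in both libraries within 30 bp of each other entered, so the value does not measure spread against sampling noise. Each pair was counted as 1 sample, since the values show no spread between plants. Agreement at these summits does not show that the libraries came from the same plants either. Both libraries are given side by side, no SD is given, and no p-value was computed, since 2 against 2 libraries could not reach an exact permutation p under 0.333 even if all were independent. Libraries are called apart where both of a time lay beyond both of the other. This sets a difference against the spread between libraries alone, and leaves the spread between plants unknown.

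At 6 h the H3K4me3 peaks were more numerous and shorter than at 1 h. The mean number was higher by 0.16 on the log2 scale and the libraries of the times did not overlap. The median peak width was 1013 and 976 bp at 6 h, against 1122 and 1178 bp at 1 h, a log2 difference of -0.21 in the mean. Peaks under 500 bp made up 29.9% and 33.9% of the lists at 6 h and 29.7% and 28.7% at 1 h. Peaks over 2000 bp made up 11.9% and 14.5% at 6 h and 15.0% and 18.03% at 1 h. The libraries of the times were apart in both shares, by little in the share of short peaks. The covered length was 42.8 and 49.3 Mb in 6 h libraries, against 43.3 and 47.7 Mb in 1 h libraries, with libraries that overlap, so no direction is given. With equal numbers of peaks taken from every list, the difference in median width was -0.061 on the log2 scale, and the number was equal by construction.

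**Figure D1:**
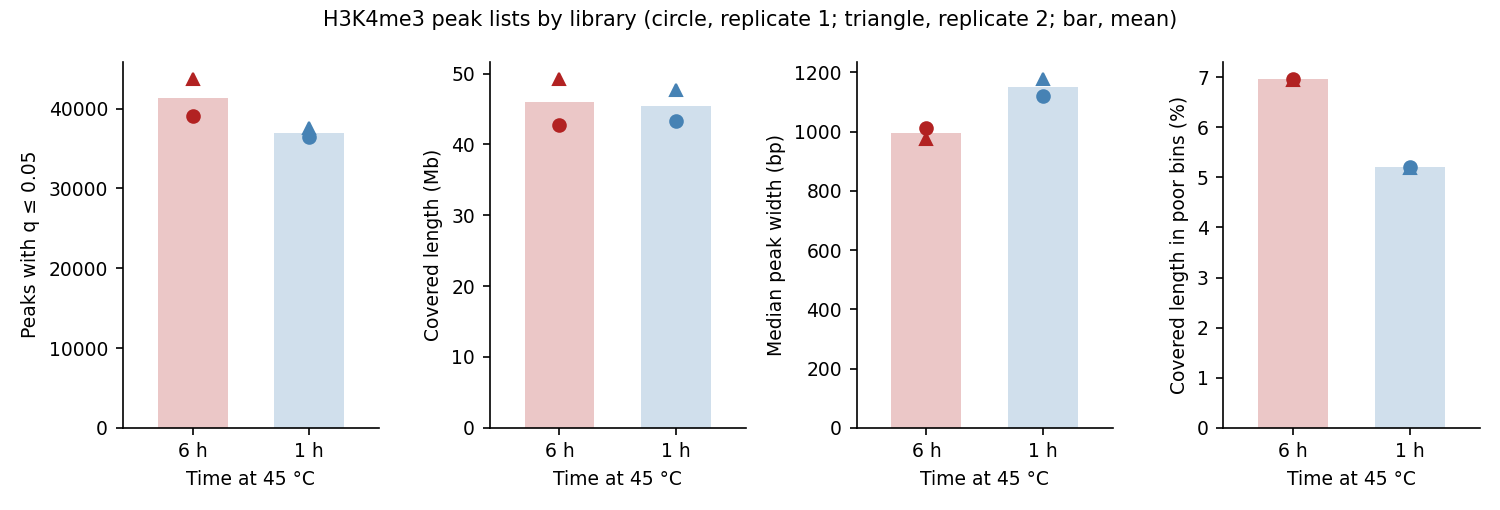
Number of H3K4me3 peaks, covered length in Mb, median peak width in bp and percent of covered length in the 403 bins of 1 Mb with the least H3K4me3 at 0 h, in 6 h libraries (red) and 1 h libraries (blue), with replicate 1 as a circle, replicate 2 as a triangle and the mean as a bar. The libraries of the 2 times are apart in number, width and the share in poor bins (6.96% and 6.95% at 6 h, 5.21% and 5.18% at 1 h), and overlap in covered length.

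Peaks of all 6 H3K4me3 lists were merged into 45840 regions, of which 42909 had a peak in at least 1 list of 6 h or 1 h. A region was called gained where both 6 h libraries and neither 1 h library had a peak in it, lost in the reverse case, and held where all 4 libraries had a peak. There were 2478 gained regions (5.78% of the 42909), 1346 lost regions (3.14%) and 26191 held regions. The balance of gains over losses depends on the libraries and the threshold. It was 1748 against 1602 with equal numbers of peaks per list, and 2811 against 3667 without replicate 1 of 1 h. Without replicate 1 of 6 h it was 8528 against 1485, without replicate 2 of 6 h 4105 against 2132, and without replicate 2 of 1 h 3606 against 2730. What follows therefore describes which regions were gained and lost, and draws nothing from the total of each. Comparisons between classes of regions are descriptions with no test, since regions of 1 sample are not replicates.

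The gained regions fall into those that had the mark before heating and those that did not. Of the 2478, 945 had a peak in both 0 h libraries and are called regained (2.2% of the 42909), 716 had a peak in neither and are called new at 6 h (1.67%), and 817 had a peak in 1 of the 2. Of the 1346 lost regions, 501 had a peak in neither 0 h library and were thus present at 1 h alone (1.17%), 487 had a peak in both 0 h libraries and were lost at 6 h alone (1.13%), and 358 had a peak in 1 of them. Read from 0 h onwards, 1637 regions had a peak in both 0 h and neither 1 h library (4.07% of the 40187 with a peak in any 0 h or 1 h list). At 6 h, 945 of these (57.7%) had a peak in both libraries, 352 in 1 and 340 in none. In the other direction 643 regions (1.6%) had a peak in neither 0 h and both 1 h libraries, and 501 of these (77.9%) had none in either 6 h library while 86 kept a peak in both. Both sets were, in their larger part, back in the 0 h state in the 6 h lists. They were picked for differing from 0 h at 1 h, so a return through this choice alone cannot be told apart from a recovery. The 6 h lists as a whole still differed from those of 0 h, with 911 regions gained and 1036 lost by the same rule. At shared summits the mean chi-square was 1.28 to 2.29 for 6 h with 0 h, against 1.04 to 1.20 for 1 h with 0 h. Such calls rest on thresholds, and 18.6% of gained and 11.4% of lost regions held a deposited peak weaker than q of 0.05 at the other time.

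The changed regions were short and weak beside the held ones. Their median length was 825 bp in regained, 414.5 bp in new, 572 bp in all gained and 395 bp in lost regions, against 1729 bp in held regions. The authors' fold enrichment, the ratio of summit pileup to local background, was read as the lower of the 2 libraries that called the region. Its median was 2.80 in regained and 2.24 in new regions, 2.40 in all gained and 2.32 in lost regions, and 13.2 in held regions at 6 h. At the best summit of a region, gained regions held a median of 17 and 29 fragments in the 6 h libraries and lost regions 20 and 26 in the 1 h libraries, against 125 and 184 in held regions at 6 h and 160 and 200 at 1 h. A lower fold of 5 or more was reached by 27 gained and 7 lost regions. The strong domains of the mark were held, and 21275 held regions had a lower fold of 5 or more at 6 h.

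Gained and lost regions lay in different chromosomal surroundings. Chromosomes were divided into 807 bins of 1 Mb, ranked by H3K4me3 covered length at 0 h and split into 4 density classes of nearly equal size. In the class with the least H3K4me3, 176 regions were gained and 6 were lost, in the next 441 and 28, in the next 797 and 179, and in the class with the most 1064 and 1133. As a share of gained, lost and held regions together, gained regions made up 29.4%, 22.5%, 14.2% and 4.87% of these density classes in the order least to most, and lost regions 1.00%, 1.43%, 3.18% and 5.19%. The 403 bins with the least H3K4me3, called poor bins here, held 31.7% of regained and 18.2% of new regions, 2.53% of lost regions and 7.28% of held regions. The bins were ranked by the 0 h lists, which also define regained and new, but not gained or lost as a whole, of which 24.9% of gained lay in poor bins.

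**Figure D2:**
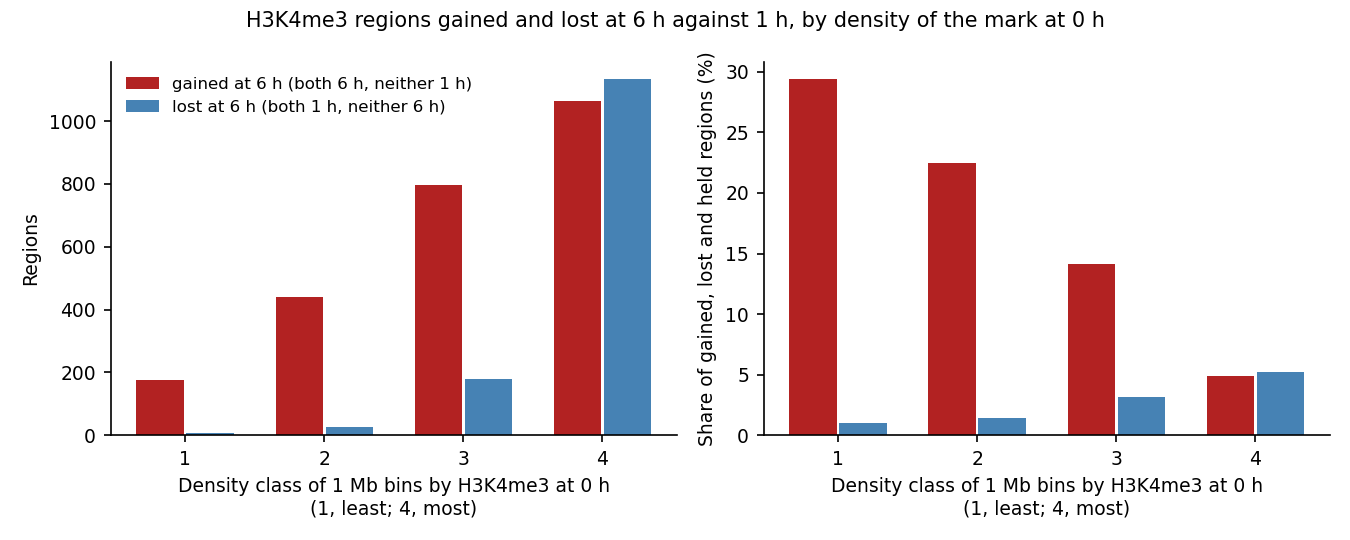
Regions gained (red) and lost (blue) at 6 h against 1 h in each of 4 density classes of the 1 Mb bins, ranked by H3K4me3 covered length at 0 h, as counts (left) and as a percent of the gained, lost and held regions of that class (right). In the poorest class 176 were gained and 6 lost, and in the richest 1064 and 1133.

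Whole lists gave the same picture as the called regions. Poor bins held 6.96% and 6.95% of the covered length at 6 h, against 5.21% and 5.18% at 1 h, and 6.38% and 6.42% at 0 h. The excess at 6 h over 1 h was 1.76 percentage points, 1.73 with equal numbers of peaks, 2.06 with bins ranked by H3K9ac and 1.56 in bins of 0.5 Mb. In the richest density class the covered length was 32.6 and 37.6 Mb at 6 h, against 34.7 and 38.3 Mb at 1 h, and in the poorest it was 0.664 and 0.770 Mb at 6 h, against 0.468 and 0.511 Mb at 1 h. In each of the 3 poorer classes both 6 h libraries covered more than both 1 h libraries, while in the richest class the libraries overlapped. Within 5 Mb of a chromosome end lay 16.3% of regained and 34.1% of new regions, against 42.9% of lost and 43.9% of held regions. For the other 4 targets poor bins also held a higher share at 6 h than at 1 h with libraries apart, from 7.79% and 7.82% against 7.00% and 6.99% for H3K27ac to 9.81% and 9.84% against 4.63% in both for H3K18ac. The shift is thus not particular to H3K4me3, and a common cause was not tested.

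The distance to other H3K4me3 regions differed as well. It was not compared within density classes of bins, so it cannot be told apart from the difference in density given above. The nearest region with a peak in all 6 lists was a median of 7042 bp away for regained, 2018 bp for new and 3695.5 bp for all gained regions, against 856.5 bp for lost regions and 388 bp for those present at 1 h alone. Within 1 kb of such a region lay 28.5% of gained and 52.7% of lost regions, and 68.9% of those present at 1 h alone. Regions that were neither gained, lost nor held lay a median of 938 bp away, with 51.4% within 1 kb. Lost regions as a whole were thus near this background, while gained regions lay farther from held ones and those present at 1 h alone lay nearer.

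The 5 regained regions with the highest lower fold show the range of these sites. Coordinates are those of the M82 V1.0 assembly, and no gene was assigned because no annotation of that assembly was used here. The region chr12:38216612-38219598 lay in the poorest density class of bins, 60693 bp from the nearest region held at all times. Its fold was 6.98 and 9.07 at 6 h, over 2793 and 2861 bp, it had no peak at q of 0.05 in either 1 h library, and its fold was 3.22 and 4.25 at 0 h. H3K9ac was called there in both 6 h libraries and in none at 0 h or 1 h, H3K18ac in both at 0 h and 6 h and none at 1 h, H3K27ac at every time, and RNAPII at none. This is a mark that was weak before heat, went under the threshold at 1 h and was above its 0 h fold at 6 h.

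Another kind of regained region is chr11:9601437-9601692, a peak of at most 256 bp with folds of 6.53 and 6.25 at 6 h and 6.43 and 6.24 at 0 h, and no deposited peak at 1 h. RNAPII and H3K18ac were called there in both libraries at 0 h and 6 h and in none at 1 h, as was the mark. H3K9ac was called in both libraries at 0 h and 6 h and in 1 at 1 h. H3K27ac was called in 1 library at 0 h and in both at 1 h and 6 h. The region chr1:1554356-1556270 had been the strongest of the 5 before heat, with folds of 14.3 and 16.7 at 0 h. It had no deposited peak in either 1 h library, and its folds at 6 h were 7.69 and 5.59 over 1254 and 1142 bp, against 1915 and 1850 bp at 0 h. The peak was thus back in part, while H3K9ac, H3K18ac, H3K27ac and RNAPII were called there in both libraries at all 3 times. The remaining regions, chr8:50135786-50136981 and chr12:11180660-11181410, had folds of 7.17 and 5.70 and of 5.53 and 6.17 at 6 h, and neither had RNAPII at any time. The one on chromosome 8 held a deposited peak in both 1 h libraries, with q of 0.074 and 0.077, close to the threshold.

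The 5 strongest new regions were of another kind. The region chr5:8588644-8589918 had folds of 7.22 and 6.91 at 6 h, with 37 and 58 fragments at the summit, and no deposited peak in any library at 1 h or 0 h. The regions chr3:16306450-16307753 (6.04 and 5.49), chr5:10555381-10557295 (5.27 and 6.75), chr10:8717847-8718268 (4.61 and 4.82) and chr3:47619311-47620571 (4.46 and 6.75) likewise had none. All 5 had an RNAPII peak in both 1 h and both 6 h libraries. At 0 h, 4 of them had no RNAPII peak and the one on chromosome 10 had one in 1 library. At chr5:8588644-8589918, all 3 acetylations were also called in both libraries at 1 h and in none at 0 h. At 6 h H3K9ac was called there in both libraries, and H3K18ac and H3K27ac in none. At chr3:47619311-47620571 none of the 3 acetylations was called at any time, so that H3K4me3 at 6 h and RNAPII from 1 h were the whole of its record.

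This order of polymerase and mark was examined over all 716 new regions, after the values of these 5 had been seen. New regions with a lower fold of 3 or more numbered 46, and 37 of them (80.4%) had RNAPII in both 1 h libraries, against 104 of the 670 weaker ones (15.5%), 64.7% of all H3K4me3 regions and 87.4% of held regions. The stronger new regions, which include the 5 that prompted the count, were thus within the range of H3K4me3 regions at large, and the weaker ones were below it. At 6 h RNAPII was in both libraries at 35 of the 46 (76.1%) and 94 of the 670 (14.0%). RNAPII itself was gained at 1 h against 0 h, in both libraries at 1 h and neither at 0 h, at 85 of the 716 new regions (11.9%), compared with 20 of the 945 regained (2.12%), 5.60% of held regions and 6.0% of all H3K4me3 regions. Regions with RNAPII at 0 h could not gain it. It was in both 0 h libraries at 10.8% of new, 9.63% of regained, 80.0% of held and 59.8% of all H3K4me3 regions. The higher share in new than in held or all regions is thus not read as an excess of early gain. Among the regained regions RNAPII at 1 h was not more frequent in the stronger ones. It was in 3 of the 88 with a lower fold of 4 or more and 45 of the 526 with a lower fold between 2 and 3.

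New regions with and without early RNAPII differed in their acetylation. The 141 with RNAPII in both 1 h libraries had H3K9ac in both 6 h libraries in 22.7%, H3K27ac in 48.2% and H3K18ac in 54.6%. The 547 with RNAPII in neither 1 h library had H3K9ac in 5.12%, H3K27ac in 86.3% and H3K18ac in 85.4%. The 2 groups were much alike in position, with 57.4% and 55.6% in the richest density class. Their median length was 517 and 397 bp, so the group with RNAPII was also the longer one.

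Beside all H3K4me3 regions, gained regions stood out by how seldom RNAPII and H3K9ac were called in them, while lost regions were closer to held ones. RNAPII was called in both 6 h libraries at 10.7% of gained regions (266 of 2478; 95% Wilson interval 9.58% to 12.01%, counting error alone), and in both 1 h libraries at 85.2% of lost regions (1147 of 1346; 83.2% to 87.0%). In held regions it was called at 78.9% at 6 h and 87.4% at 1 h, and in all H3K4me3 regions at 57.5% at 6 h and 64.7% at 1 h. H3K9ac was called at 16.4% of gained regions at 6 h and 68.4% of lost regions at 1 h, and in all H3K4me3 regions at 62.0% at 6 h and 55.8% at 1 h. By single library the shares were 22.1% and 24.0% of gained regions at 6 h and 75.0% and 76.2% of lost regions at 1 h. Regions neither gained, lost nor held had RNAPII at 28.9% at 6 h and 33.9% at 1 h. They had H3K9ac at 21.8% at 6 h and 15.9% at 1 h. Beside these, gained regions were lower in RNAPII and near in H3K9ac (26.3% of regained and 9.64% of new at 6 h). Lost regions were well above them in both targets. The pattern of H3K18ac and H3K27ac without H3K9ac and RNAPII was present at 55.2% of gained regions at 6 h, against 2.08% of lost regions at 1 h and 3.93% of held regions at 6 h. All 4 other targets together were present at 3.51% of gained, 56.5% of lost and 75.7% of held regions.

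The contrast between gained and lost regions was also present within classes of length. Among regions of 300 to 600 bp, RNAPII was in both 6 h libraries at 10.1% of the 1011 gained regions, in both 1 h libraries at 86.9% of the 725 lost regions, and at 32.0% at 6 h and 53.9% at 1 h of the 917 held regions. Among regions of 600 to 1000 bp it was at 8.68% of 645 gained and 83.8% of 210 lost regions. Leaving out libraries moved the share to between 11.0% and 17.3% for gained and between 72.8% and 83.2% for lost regions, without overlap of the 2 ranges.

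**Figure D3:**
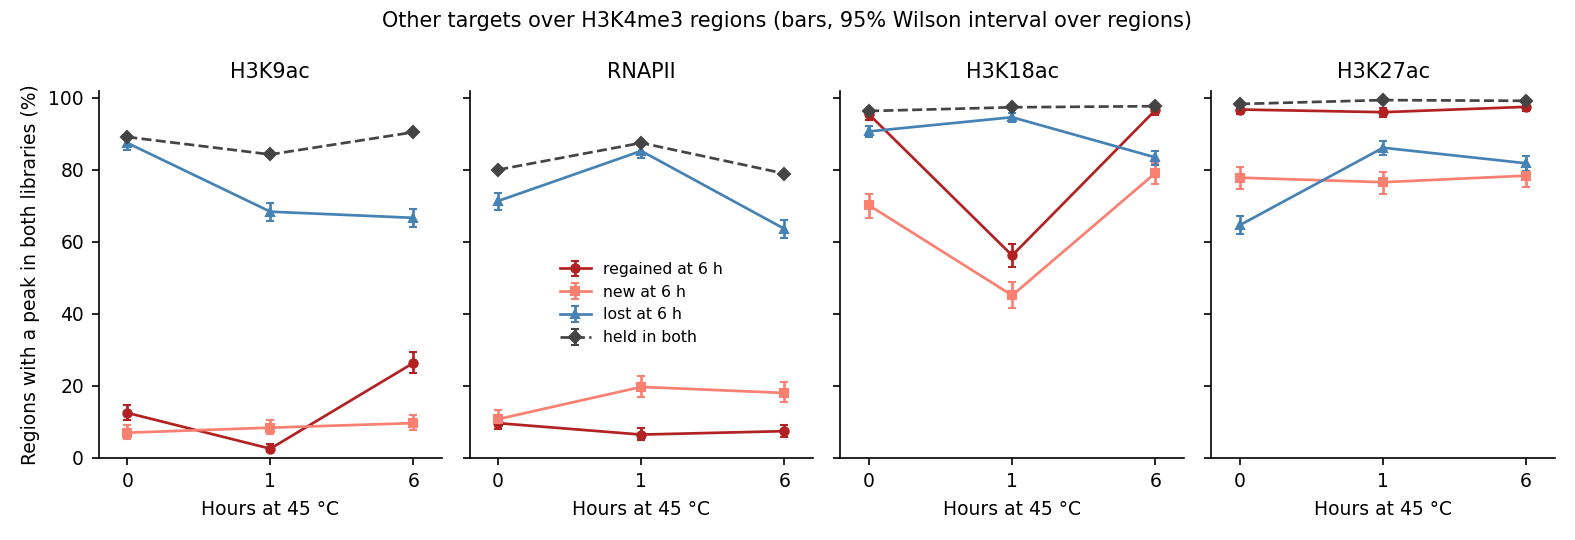
Percent of H3K4me3 regions with a peak of H3K9ac, RNAPII, H3K18ac or H3K27ac in both libraries at 0, 1 and 6 h, for 945 regained, 716 new, 1346 lost and 26191 held regions. Bars are 95% Wilson intervals over regions, which cover counting error alone. Regained and new regions lie under 27% for H3K9ac and under 20% for RNAPII at all times, and dip at 1 h for H3K18ac.

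Across time, the acetylations did not move alike in the regained regions. H3K18ac was called in both libraries at 95.3%, 56.2% and 96.5% of them at 0, 1 and 6 h. H3K9ac followed the same course at a lower level, at 12.5%, 2.54% and 26.3%. H3K27ac stayed between 96.0% and 97.5%, and RNAPII between 6.46% and 9.63%. H3K18ac was itself gained at 6 h against 1 h at 691 of the 2478 gained H3K4me3 regions (27.9%), against 2 of the 1346 lost (0.149%), 0.886% of held and 5.73% of all H3K4me3 regions. H3K9ac was gained at 220 of the 945 regained regions (23.3%), 41 of the 716 new (5.73%) and 6.86% of all H3K4me3 regions. H3K27ac, in contrast, was gained at 14 of the 2478 (0.565%), near the 0.423% of all H3K4me3 regions. A region that already had a target at 1 h could not gain it by this rule. H3K18ac was in both 1 h libraries at 52.0% of gained, 94.6% of lost and 97.3% of held regions. H3K9ac was so at 2.54% of regained, 8.38% of new and 55.8% of all H3K4me3 regions.

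Lost regions kept most of their other marks. H3K9ac was called in both libraries at 87.4%, 68.4% and 66.6% of them at 0, 1 and 6 h, H3K18ac at 90.6%, 94.6% and 83.4%, H3K27ac at 64.6%, 86.1% and 81.8%, and RNAPII at 71.3%, 85.2% and 63.6%. RNAPII was lost at 6 h against 1 h at 190 of the 1346 (14.1%), compared with 62 of the 2478 gained (2.50%), 5.94% of held and 6.39% of all H3K4me3 regions. Only regions with RNAPII in both 1 h libraries could lose it, 1147 of the lost and 254 of the gained regions. H3K9ac was lost at 80 of the 1346 (5.94%; 1.79% of all H3K4me3 regions), of which 920 had it in both 1 h libraries. Among gained regions it was lost at 35, and 98 had it in both 1 h libraries. Among held regions RNAPII was lost at 1556 of the 22904 that had it in both 1 h libraries, and H3K9ac at 198 of 22064. Where present at 1 h, both targets were thus lost more often in lost than in held regions, and less often than in gained regions. By the rule of both libraries at 1 h and neither at 6 h, most lost H3K4me3 regions thus lost neither target.

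The strongest lost regions belonged to the richer bins. The region chr4:59254214-59255005 had no deposited peak in either 6 h library, against folds of 7.06 and 6.85 over 783 and 785 bp at 1 h and of 7.09 and 6.14 at 0 h, with all 4 other targets called in every library of each time. The regions chr1:82727696-82728266, chr1:86689384-86689955, chr8:52781915-52782830 and chr3:60509146-60509691 followed, with lower folds of 6.34, 6.07, 5.99 and 5.85 at 1 h. At the first of these, replicate 2 of 6 h held a deposited peak with q of 0.351 and 18 fragments at its summit. The strongest region present at 1 h alone was chr3:63769662-63769967, with folds of 4.57 and 4.25 at 1 h over 210 and 306 bp and no deposited peak at 6 h or 0 h. It lay 144 bp from a region held at all times, and 2 others of the leading 5, chr8:61267631-61267870 and chr4:60738986-60739569, lay 133 and 87 bp from one. No region present at 1 h alone reached a lower fold of 5.

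Regions that held the mark changed in width, and the direction differed between regions with and without RNAPII. Over the 26191 held regions the median covered length was 1314 and 1444 bp at 6 h, against 1414 and 1525 bp at 1 h. The median change was -96 bp, or -0.10 on the log2 scale, and -0.08 between the replicate 2 libraries, which were nearly equal in background but not in median fold. Both 6 h libraries were narrower than both 1 h libraries in 11601 regions (44.3%) and wider in 4430 (16.9%). Narrowing was found in every class of width at 0 h, with a median change between -35 bp in the shortest and -120.75 bp in the longest regions. It was not found in every density class of bins. There the median change was 36, 9, -28 and -127.5 bp in the order least to most H3K4me3.

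In the 20371 held regions with RNAPII in both libraries at 6 h and at 1 h, the median change was -136.5 bp, with 50.9% narrower and 10.0% wider. In the 2182 held regions with RNAPII in no library of either time, it was 227.5 bp, with 9.30% narrower and 58.8% wider. Summed, the regions without RNAPII covered 2.35 and 2.70 Mb at 6 h, against 1.43 and 1.80 Mb in the 1 h lists (2.09 and 2.58 Mb in the 0 h lists). Those with RNAPII covered 33.6 and 36.7 Mb at 6 h, against 36.7 and 39.3 Mb in the 1 h lists (35.0 and 38.3 Mb in the 0 h lists). Between the replicate 2 libraries the median log2 change was 0.36 without and -0.11 with RNAPII. The regions that lost RNAPII between 1 h and 6 h (1556) had a median change of -1 bp. The 151 with RNAPII in both 6 h and neither 1 h library changed by 170.5 bp, with 52.3% wider, so presence of RNAPII at 6 h alone did not go with narrowing.

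The contrast was present in each density class of bins and each class of width examined. Without RNAPII, 56.8%, 69.2%, 67.7% and 51.3% of held regions were wider at 6 h in the density classes in the order least to most H3K4me3, and with RNAPII 28.0%, 21.7%, 16.3% and 7.70% were. Of regions of 500 to 1000 bp at 0 h, 53.1% of the 828 without and 6.36% of the 2028 with RNAPII were wider. Of those from 2000 bp, 86.9% of the 229 without and 13.5% of the 5899 with RNAPII were wider. H3K9ac gave a similar division. The median change was -132 bp in the 21618 held regions with H3K9ac at both times, 229.25 bp in the 1458 in which H3K9ac was in both 6 h and neither 1 h library, and 251.75 bp in the 1210 without it at either time.

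**Figure D4:**
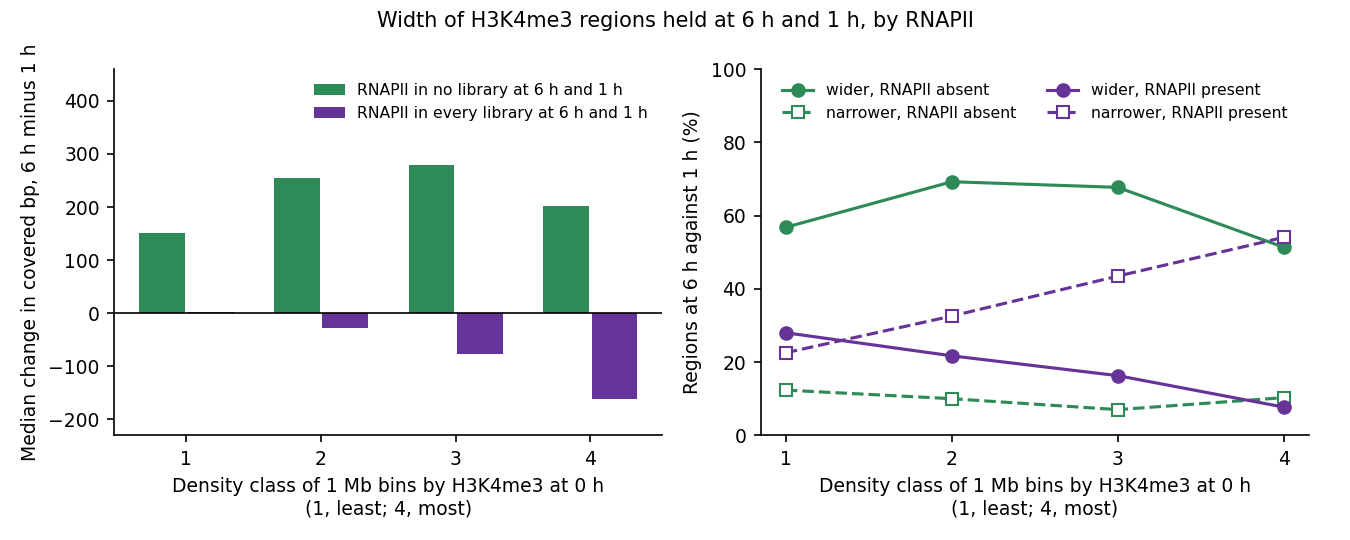
Change in covered bp of held H3K4me3 regions, 6 h minus 1 h, by density class of 1 Mb bins and by RNAPII. Left, median change in bp. Right, percent of regions in which both 6 h libraries were wider (filled circles) or narrower (open squares) than both 1 h libraries. Regions without RNAPII widened at the median in all 4 classes (151.5 to 278.5 bp), and regions with RNAPII changed by 2 bp in the poorest and by -162.5 bp in the richest class.

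Single regions show how large these changes could be. The region chr9:3377490-3382226 was covered over 1239 and 1386 bp at 6 h, against 4658 and 4736 bp at 1 h and 3628 and 4102 bp at 0 h. At chr12:963662-969616, with a fold of 18.4 and 15.9 at 6 h and 26.6 and 29.1 at 1 h, the covered length was 2795 and 2788 bp at 6 h, against 5667 and 5842 bp at 1 h. There the domain, which was 1 or 2 peaks at 1 h, was deposited as 5 peaks at 6 h. Among the 5 regions with the largest decrease in bp, the largest in relation to its length was chr5:64766073-64769348, with 446 and 402 bp at 6 h, against 2589 and 2884 bp at 1 h. All 4 other targets were called in every library of each time in the 5 regions that narrowed most. Among the 5 that widened most, chr12:60497216-60502834 had 5105 and 5555 bp at 6 h, against 984 and 1859 bp at 1 h and 4104 and 5084 bp at 0 h, and chr12:3617166-3620978 had 3462 and 3792 bp at 6 h, against 136 and 569 bp at 1 h. Neither had H3K9ac at any time, and RNAPII was called there in at most 1 library of a time. The widest, chr10:61244980-61262817, had 14656 and 17112 bp at 6 h, against 7537 and 11608 bp at 1 h, and carried all 4 other targets throughout. So did chr2:41303310-41312226. At chr5:32848385-32854417, H3K9ac was called in both libraries at 0 h and 6 h and in none at 1 h, and RNAPII in 1 library of each time.

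**Figure D5:**
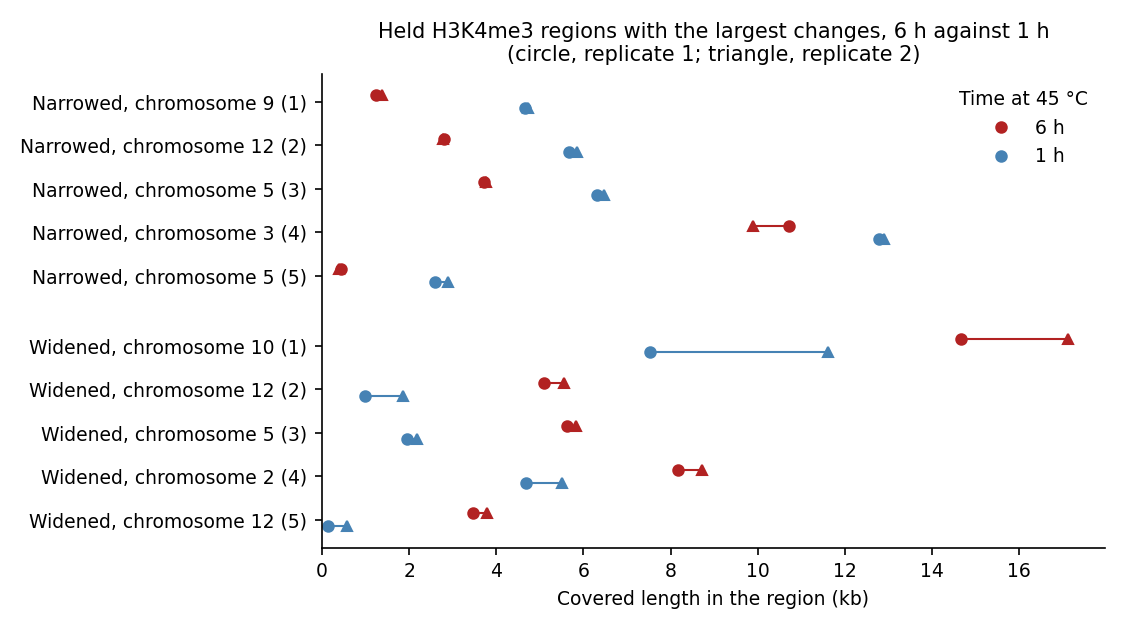
Covered length in kb in the 5 held regions with the largest decrease and the 5 with the largest increase at 6 h (red) against 1 h (blue), chosen among regions with a peak in all 6 lists in which the libraries of the 2 times do not overlap. Circles are replicate 1 and triangles replicate 2.

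Peaks matched one to one between libraries narrowed by an amount similar to the difference between libraries of a time. The median log2 width of 6 h over 1 h was -0.09 between the replicate 2 libraries (24332 peaks, -73 bp) and between -0.19 and -0.03 in the other 3 pairs, while replicate 2 over replicate 1 gave 0.08 at 6 h and 0.08 at 1 h. The summit moved by a median of 48 to 50 bp between a 6 h and a 1 h library, against 32 bp within 6 h and 38 bp within 1 h. In peaks of at least 1000 bp whose summit lay off centre at 0 h (11345 in replicate 1 and 12195 in replicate 2), the edge on the side nearer to the summit, as fixed from the 0 h lists, lay inside its 1 h position at 6 h in 83.7% and 85.8% of peaks, by a median of 49 and 53 bp. The far edge did so in 65.2% and 56.5%, by a median of 56 and 20 bp. Held regions were split into more than 1 peak in 20.3% and 18.2% of cases at 6 h and 17.7% and 14.3% at 1 h, with libraries apart.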

How the data were processed

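ChIP-seq libraries of H3K4me3, H3K9ac, H3K18ac, H3K27ac and RNAPII from tomato leaves were analysed as the peak lists that the authors deposited. The study's methods and the submitters' processing notes name Trimmomatic 0.38 for trimming, Bowtie2 2.3.5 for mapping to the M82 V1.0 assembly, SAMtools 1.9, and MACS2 2.2.7.1 as peak caller. Broad peaks at a q of 0.05 are described in the methods, whereas the deposited lists are narrow peaks that reach a p-value of 0.05. Each library has its own list. The deposited columns are the position, the fold enrichment (a ratio of pileup to local background), and the p-value and q-value as −log10. Samples of H3K27me1 and of input were not used here.

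Peaks with q of at most 0.05 on the 12 chromosomes were kept (89.7% to 91.6% of each H3K4me3 list). Regions were the merged union of the 6 H3K4me3 lists, and presence required an overlap of 1 bp. Whole numbers of fragments were recovered from fold and p-value, within 0.001 of −log10 p, for peaks with −log10 p under 280, which succeeded for 100% of them. The lowest background of a library served as its depth, which is relative and not a read total. Replicates were compared by a mean chi-square over peaks with summits within 30 bp and at least 60 fragments, in 20 levels of pileup. Both this step and the classes of regions were tested on simulated data. Wilson intervals (95%) cover counting error over regions alone. The fold was used to rank sites and form classes within a time.

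The regions named in the text are the 5 with the highest lower fold in each class, and the 5 held regions with the largest decrease and increase in covered bp whose libraries do not overlap. The members, classes and lists were chosen with earlier results of these data known. The split of new regions by RNAPII and by fold, and of held regions by RNAPII within bins, was chosen after values were seen. Alternatives were another threshold, equal numbers of peaks, another overlap, merging of near peaks, windows, other bins and leaving out each library. Scripts ran under Python 3.11.15 (scipy 1.17.1, numpy 2.4.6, matplotlib 3.10.9, pandas 2.3.3).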

Additional observations from a re-analysis of the deposited data

Results flagged for a closer look

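H3K4me3 and H3K27ac moved in opposite directions at 6 h against 1 h in 2 measures, with both libraries of 6 h beyond both of 1 h in each target. The number of peaks differed by 0.16 on the log2 scale for H3K4me3 and by -0.13 for H3K27ac, which had 110102 and 100371 in its 6 h lists, against 119478 and 110227 in its 1 h lists. The H3K27ac ranges touch closely, since its 6 h maximum lies just under its 1 h minimum. The median width differed by -0.21 for H3K4me3 and by 0.087 for H3K27ac, with 502 and 521 bp at 6 h against 473 and 490 bp at 1 h. The difference between the targets was not tested.

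Held H3K4me3 regions without RNAPII at either time widened by a median of 0.44 on the log2 scale at 6 h against 1 h, while those with RNAPII at both times changed by -0.13. In summed length both libraries of 6 h lay beyond both of 1 h in each set, upward without and downward with RNAPII. In the set with RNAPII the margin was small, at 33.6 and 36.7 Mb for 6 h against 36.7 and 39.3 Mb for 1 h. This difference was not tested either, and the 2 sets also differ in width, at a median of 857 and 980 bp without and 1382 and 1512 bp with RNAPII at 6 h.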

How the results depend on the processing

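No paired analysis was possible because each pair of libraries was counted as 1 sample and no test was run, so there is no fit to block. Compared by replicate number, matched peaks differed in width by -0.11 (replicate 1) and -0.09 (replicate 2) on the log2 scale, 6 h over 1 h. With equal numbers of peaks per list (36418 each), the difference in peak number was 0.0 by construction, that in median width -0.061, that in covered length -0.019 (all log2), and the excess in poor bins 1.73 points. That excess was 1.79 with all peaks as deposited, 2.06 with bins ranked by H3K9ac and 1.56 in 0.5 Mb bins. Windows of 500 bp gave 8594 gained and 6933 lost, with 3574 regained, 2027 new, 2755 present at 1 h alone and 2456 lost at 6 h alone. Merging peaks up to 300 bp apart gave 856 lost, 414 new and 242 present at 1 h alone, and an RNAPII share of lost regions of 82.8%. With at least 50% of a region covered, 350 were regained and 256 lost at 6 h alone, and the RNAPII share of gained regions was 8.99%.

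Leaving out libraries, singly or by replicate number, weakens the condition and gave 2811 to 9315 gained, 1485 to 4493 lost, 1076 to 3658 regained, 756 to 5657 new, 515 to 2965 present at 1 h alone and 585 to 1528 lost at 6 h alone. The RNAPII share ranged from 11.0% to 17.3% of gained and from 72.8% to 83.2% of lost regions. The log2 difference in covered length ranged from -0.090 to 0.11, that in median width from -0.27 to -0.15, that in peak number from 0.08 to 0.24, that in matched width from -0.15 to -0.06, and the excess in poor bins from 1.74 to 1.78. Covered length was negative with equal numbers of peaks (-0.019), without replicate 1 of 1 h (-0.053), without replicate 2 of 6 h (-0.090) and without replicate 2 of every time (-0.018), and its direction was thus not established. The number of new regions rests most on replicate 1 of 6 h, the shallowest library, without which 5182 were called. Of 142 values under alternatives, 83 moved by less than the spread between libraries, the counting interval or 1.5 times. The cause of the other shifts was not tested.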
